A study of Homo sapiens with 9 samples.

Results

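The 949 regions described here were open, by the deposited peak lists, in HEK293T cells lacking IGF2BP1 and in HEK293T cells lacking IGF2BP3, and had no peak in cells lacking IGF2BP2 or in the control. They were chosen by peak presence alone. All peaks of the 4 lists were merged where they shared at least 1 bp, which gave 71597 regions, and a region was kept when it overlapped a peak of the IGF2BP1 and IGF2BP3 knockout lists and none of the other 2 lists. The kept regions are 1.33% of all regions. Presence in the 4 lists therefore selected the members and is not itself a result.

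HEK293T is an established line of human embryonic kidney origin. ATAC-seq reads open chromatin by the places where the Tn5 transposase can insert sequencing adapters, and runs of dense insertion are called as peaks, mostly at promoters and enhancers. IGF2BP1, IGF2BP2 and IGF2BP3, also named IMP1, IMP2 and IMP3, are a family of RNA-binding proteins that stabilise and localise messenger RNAs in the cytoplasm. IGF2BP1 and IGF2BP3 are best known from embryonic tissue and tumours, while IGF2BP2 is also made in many adult tissues.

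The labels give 9 untreated libraries in 4 groups. Batches 2 and 3 each gave 1 library of the control, whose guide targets no mammalian gene, and 1 of each knockout. Batch 1 gave 1 more of the IGF2BP1 knockout, whose list thus rests on 3 libraries and the others on 2 each. Each knockout was 1 clone grown from a single GFP-positive cell after transient transfection of plasmids carrying 3 guides, so effects of the genotype and of the clone cannot be told apart. The authors deposited 1 peak list per group, with chromosome, start and end of each peak and no height, score or read count. No spread between replicates can be measured from them, no test was made, and every interval below is a 95% Wilson interval over regions or genes that covers counting error only. How many reads stand behind a list is unknown.

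The lists held 39194 peaks for the control, 50917 for the IGF2BP1 knockout, 60262 for the IGF2BP2 knockout and 44041 for the IGF2BP3 knockout. The members are the smallest class of regions held by exactly 2 knockout lists. Both other such classes include the IGF2BP2 knockout list, the longest, and the class sizes given here are not adjusted for list length. The IGF2BP1 and IGF2BP2 knockouts alone shared 5666 regions (7.91% of all) and the IGF2BP2 and IGF2BP3 knockouts alone shared 2507 (3.50%). All 3 knockouts without the control shared 4925 regions, and 29686 were in all 4 lists. These classes come from the same 4 lists and are not independent of each other. As a check of the cell type, 7 of 10 genes typical of HEK293T had a peak at a gene end in the control list, the exceptions being SOX11, EYA1 and PAX2, and none of the 6 marker genes of liver, endothelium and heart had one in any list. Of 4 blood genes, SPI1 alone had one in the control list, 2 had one in the IGF2BP1 knockout list and 1 in each of the other lists. Of 3 adult kidney genes none had one in the control or IGF2BP3 knockout list, and 1 did in each of the IGF2BP1 and IGF2BP2 knockout lists.

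The 5 promoters that follow show the kind of sequence found where a member lay on a gene start. They come from RefSeq (GRCh38.p14) and run from 250 bases before the start to 50 after it, 5′ to 3′ on the gene's own strand. The first 4 belong to the members at starts of protein-coding genes that rank highest by the smaller of their peak widths. Their capitals mark the GC box GGGCGG, bound by SP-family factors, and CCAAT, bound by NF-Y, on either strand. The fifth, OAS3, is the promoter of an interferon-induced gene and was chosen after its values were seen. Its capitals mark 2 copies of an interferon-response pattern, GAAA and GAAA separated by any 2 bases.
SH3PXD2A promoter, chr10:103693429-103693728, minus strand: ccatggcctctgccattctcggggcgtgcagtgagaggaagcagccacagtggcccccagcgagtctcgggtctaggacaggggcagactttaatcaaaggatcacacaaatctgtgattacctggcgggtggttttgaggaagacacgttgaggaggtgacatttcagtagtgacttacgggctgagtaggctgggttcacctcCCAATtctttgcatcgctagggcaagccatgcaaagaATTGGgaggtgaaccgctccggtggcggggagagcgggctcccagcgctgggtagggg
KMT5B promoter, chr11:68213599-68213898, minus strand: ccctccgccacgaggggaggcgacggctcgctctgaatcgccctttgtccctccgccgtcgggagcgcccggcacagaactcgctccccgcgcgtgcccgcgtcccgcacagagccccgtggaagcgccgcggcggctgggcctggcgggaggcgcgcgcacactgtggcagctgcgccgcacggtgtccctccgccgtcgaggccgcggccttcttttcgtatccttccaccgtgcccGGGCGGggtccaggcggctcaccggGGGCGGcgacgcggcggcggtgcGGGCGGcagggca
KCNMA1 promoter, chr10:77637759-77638058, minus strand: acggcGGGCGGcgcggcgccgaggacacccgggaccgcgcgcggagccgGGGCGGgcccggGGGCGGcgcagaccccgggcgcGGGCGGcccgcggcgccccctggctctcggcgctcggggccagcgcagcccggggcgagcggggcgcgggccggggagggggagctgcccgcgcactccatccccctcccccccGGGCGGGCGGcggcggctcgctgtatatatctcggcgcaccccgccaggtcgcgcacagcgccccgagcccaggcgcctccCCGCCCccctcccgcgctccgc
MAOB promoter, chrX:43882401-43882700, minus strand: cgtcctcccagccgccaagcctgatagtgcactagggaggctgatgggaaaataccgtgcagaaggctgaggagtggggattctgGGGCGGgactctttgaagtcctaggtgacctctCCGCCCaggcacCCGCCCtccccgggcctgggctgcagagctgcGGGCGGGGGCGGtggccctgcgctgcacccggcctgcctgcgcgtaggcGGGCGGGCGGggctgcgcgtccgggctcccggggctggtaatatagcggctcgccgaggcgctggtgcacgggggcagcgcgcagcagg
OAS3 promoter, chr12:112938224-112938523, plus strand: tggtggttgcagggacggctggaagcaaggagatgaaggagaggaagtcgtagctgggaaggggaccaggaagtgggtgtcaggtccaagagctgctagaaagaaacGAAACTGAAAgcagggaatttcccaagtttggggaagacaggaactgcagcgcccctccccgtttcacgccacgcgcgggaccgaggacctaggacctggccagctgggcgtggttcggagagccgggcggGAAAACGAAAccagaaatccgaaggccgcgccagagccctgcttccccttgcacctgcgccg

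The SH3PXD2A promoter was 58.0% G and C and held no GC box, while its pair of CCAAT matches lay in the opposing arms of an inverted repeat. The arms were 24 bases long with 14 bases between them, and 7 of 35116 promoters (0.0199%) in the table held exact arms at least as long. The repeat was looked for after the sequence had been seen. The KMT5B promoter was 77.3% G and C with 3 GC boxes, the KCNMA1 promoter 85.7% with 7, and the MAOB promoter 72.0% with 7, overlapping boxes included. The OAS3 promoter was 61.3% G and C, and its interferon-response matches began at positions -143 and -12 relative to the annotated start. Among promoters of other coding genes under members the G and C content varied, with 33.7% at TAAR6 and 80.7% at a CBS start. Both examples were picked after their values were seen. At least 2 interferon-response matches were found in 91 of the 35116 promoters (0.259%). A match describes the letters and does not show that a factor bound there.

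The peaks that make up the members were narrow compared with others of their own lists. In the IGF2BP1 knockout list they had a median width of 668 bp (quartiles 509 and 856, range 264 to 2521), against 834 bp for that whole list. In the IGF2BP3 knockout list the median was 520 bp (quartiles 412 and 665, range 231 to 1637), against 713 bp. The median member peak stood at the 29.5th percentile of width in the IGF2BP1 knockout list and at the 25.7th in the IGF2BP3 knockout list. In 608 members (64.1%) neither peak exceeded the median width of its list, and in 109 (11.5%) both did. The other classes of exactly 2 knockouts were as narrow, with a median IGF2BP1 knockout peak of 649 bp in regions of the IGF2BP1 and IGF2BP2 knockouts only and a median IGF2BP3 knockout peak of 527 bp in those of the IGF2BP2 and IGF2BP3 knockouts only. Width depends on the caller and the depth, and its relation to signal height was not tested.

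**Figure D1:**
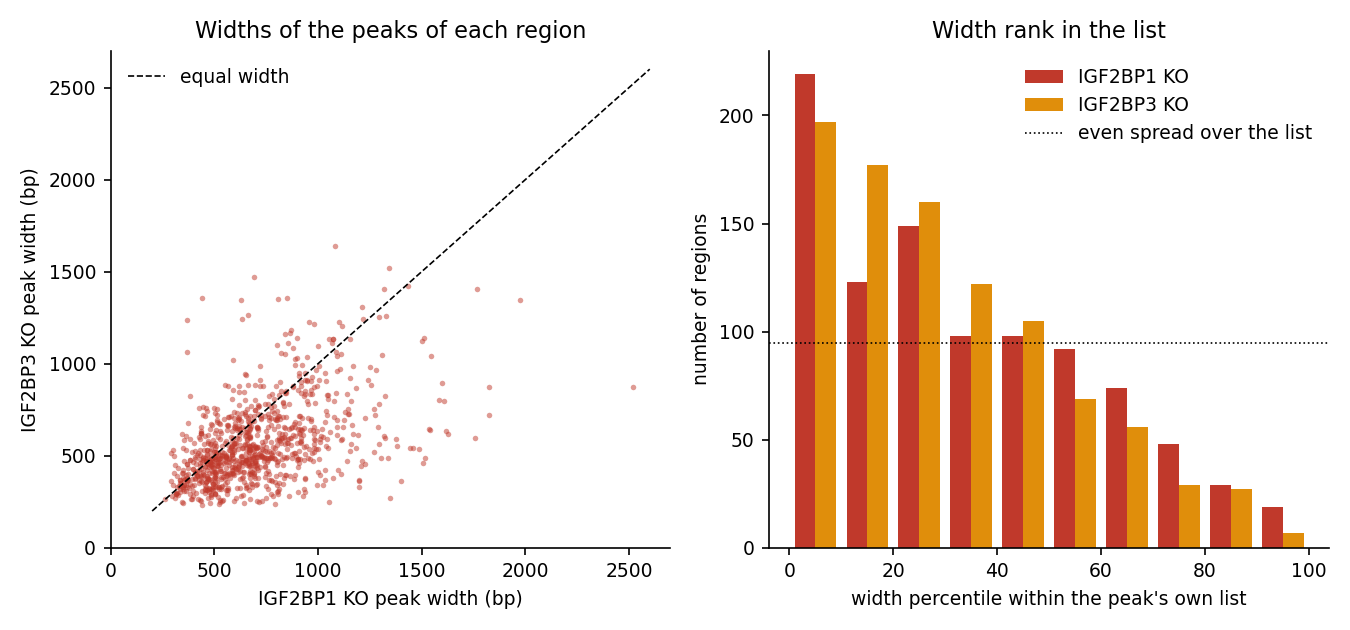
Left, the width of the IGF2BP3 knockout peak (y axis, bp) against the width of the IGF2BP1 knockout peak (x axis, bp), one point per member, with a dashed line at equal width. Right, the number of members in each band of 10 percentiles of width within the peak's own list, with a dotted line where an even spread would lie. Most points lie under 1000 bp and below the line, and both sets of bars stand highest among the narrowest peaks of each list.

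The rule requires the peaks of the 2 knockouts to overlap, and they sat on nearly the same bases. Their centres were a median of 64.0 bp apart, and they shared a median of 477 bp. The same values were not computed for other classes. The narrower peak lay wholly inside the other in 565 members (59.5%, 56.4 to 62.6%), and shared at least 50% of its length in 946. The IGF2BP1 knockout peak was the wider in 708 members (74.6%) and the IGF2BP3 knockout peak in 238 (25.1%), the same order as the median widths of the whole lists. In 4 members the IGF2BP3 knockout list held 2 separate peaks, and the width given for that list is then the wider one's.

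More than 10 kb separated most members from the nearest peak of the lists that lacked them. The rule itself excludes an overlap, and this distance was not computed for other classes. The nearest control or IGF2BP2 knockout peak was a median of 13.5 kb away (quartiles 5.34 and 30.2 kb, range 0.261 to 466 kb). Taken singly, the median distance was 22.8 kb to a control peak and 14.9 kb to an IGF2BP2 knockout peak, whose list is the longest. A peak of either list lay within 1 kb of 44 members (4.64%) and within 10 kb of 401 (42.3%). A region open in all 4 lists lay within 10 kb of 201 members (21.2%). Members seldom adjoined each other, since 6 had another member within 10 kb and 105 (11.1%) within 100 kb.

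The 1 bp rule left few near misses. No member came closer than 100 bp to a lacking list, and the 3 closest lay at DUSP16, a MAP kinase phosphatase gene, MECOM, a transcription factor gene of blood stem cells, and LIMK1, a kinase acting on actin turnover. The DUSP16 member, chr12:12561452-12562264, had a control peak 0.261 kb away. The MECOM member, chr3:169146238-169146660, had one 0.278 kb away, and the LIMK1 member, chr7:74084088-74085036, one 0.288 kb away. Just outside the rule, the IGF2BP1-knockout region chr5:17218219-17218862 ended 7 bp from an IGF2BP3 knockout peak, chr15:32153702-32154118 ended 8 bp from one, and chr4:152590231-152590855 ended 111 bp from one. From the other side, the IGF2BP3-knockout regions chr15:32154127-32154351, chr4:118397501-118398064 and chr11:2886289-2886688 ended 8, 15 and 84 bp from an IGF2BP1 knockout peak. The chromosome 15 regions faced each other across the same gap. At 7, 15 and 84 bp the neighbouring peak was not in a region held by its knockout alone. These values describe distances at the edge of the rule only.

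Among members at least 1 kb from a lacking list, the 10 with the largest smaller width were on 8 chromosomes, and 1 of them covered the start of a protein-coding gene. The first, chr16:886180-887654 inside LMF1, a lipase maturation factor gene, had peaks of 1435 bp in the IGF2BP1 knockout and 1422 bp in the IGF2BP3 knockout, and lay 27.3 kb from a control peak and 27.0 kb from an IGF2BP2 knockout peak. The second, chr11:43546560-43548328, lay outside every gene of the RefSeq table and had peaks of 1769 and 1405 bp, with the nearest control peak 24.9 kb away. The third, chr21:44573149-44575122, overlapped TSPEAR and the hair keratin-associated gene KRTAP10-4 with peaks of 1974 and 1347 bp. These 3 regions thus had wide peaks in both knockouts, near equal in width at the first alone, and no peak of the other 2 lists closer than 18.5 kb.

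The fourth, chr10:103692177-103693698, was the SH3PXD2A start shown above, with peaks of 1341 and 1520 bp. It was the least isolated of these 10, with an IGF2BP2 knockout peak 2.73 kb away and a control peak 5.58 kb away. The fifth and sixth overlapped long non-coding RNA genes, LINC00448 at chr13:62798831-62800289 and LOC105373592 at chr2:121902153-121903478. The eighth, chr11:44178194-44179451, lay inside EXT2, which encodes a heparan sulfate polymerase. The ninth, chr3:188037010-188038351, was 115 kb from the nearest peak of both lacking lists and 115 kb from the start of LPP. The seventh and last were on chromosome 4, at chr4:127425346-127426637 in a long non-coding RNA gene and at chr4:166535377-166536933 outside all genes, 662 kb from the nearest start, that of TLL1.

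**Figure D2:**
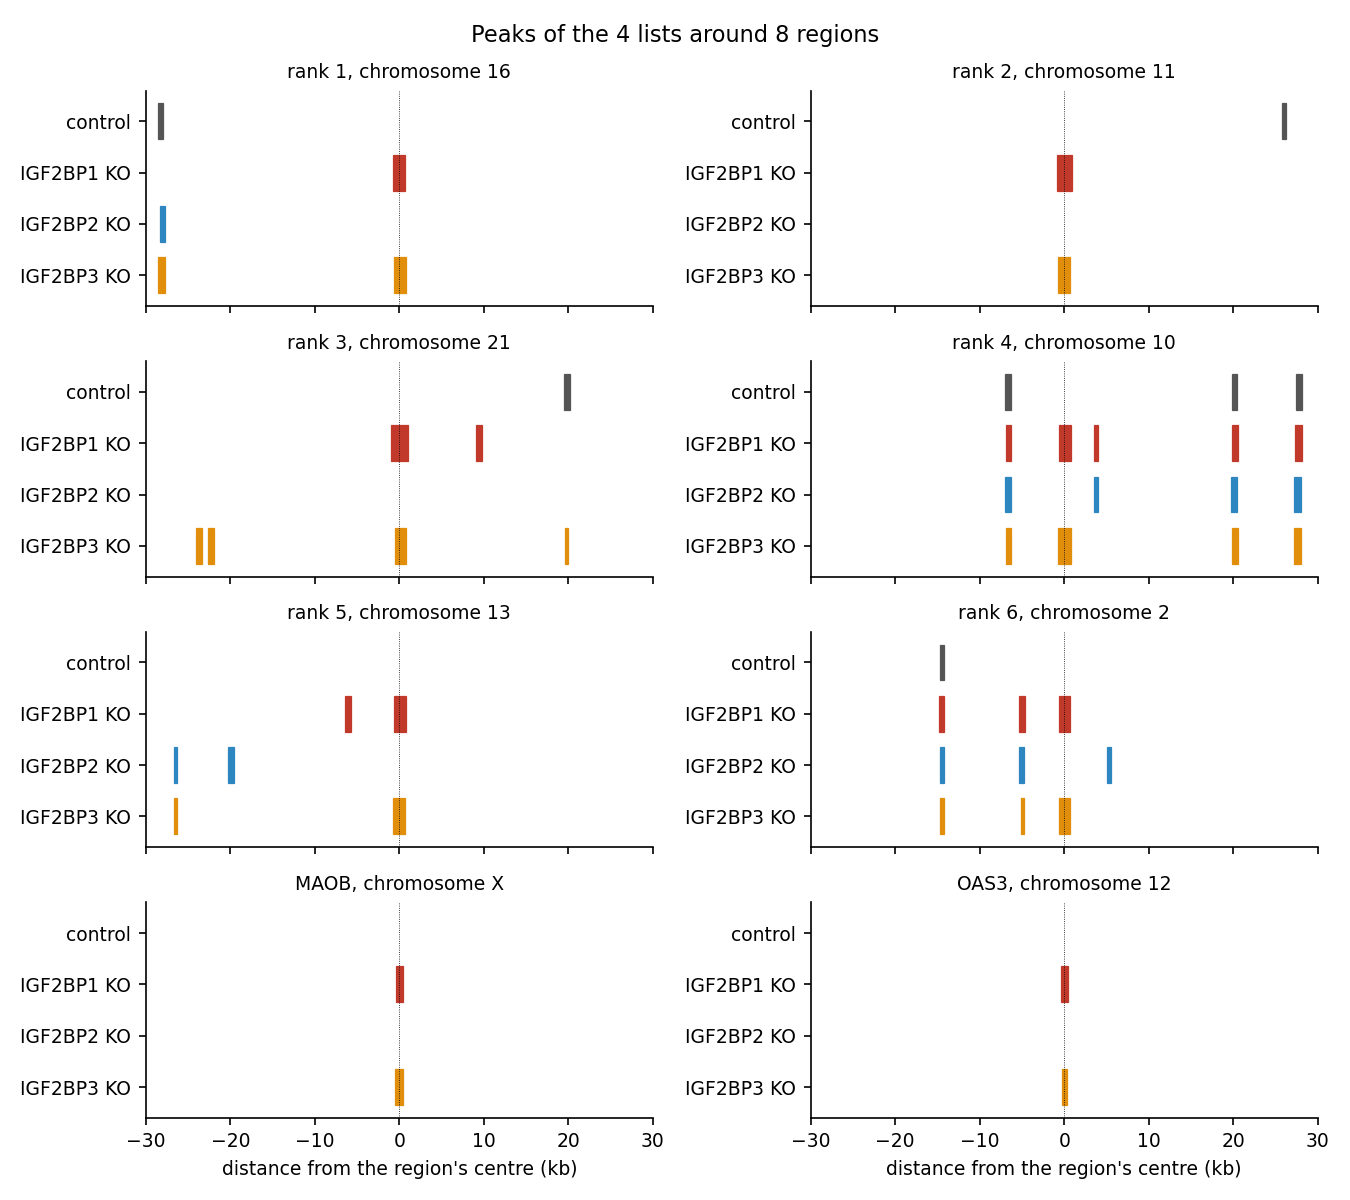
Peaks of the 4 lists (rows) within 30 kb of the centre of 8 members, with distance from the centre in kb on the x axis and each block drawn to the peak's own width. The 6 members with the largest smaller width, the MAOB start and the OAS3 start each show a block at 0 in the IGF2BP1 and IGF2BP3 knockout rows alone, as the rule requires, and the MAOB and OAS3 maps hold no other peak of any list.

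Gene starts were uncommon among the members. Of the 914 members on chromosomes with starts in the promoter table, 66 (7.22%, 5.72 to 9.08%) lay within 1 kb of a gene start and 42 (4.60%) within 1 kb of a protein-coding gene's start. The other 35 were on chromosome 8 or unplaced sequences, where starts were not analysed here. The share at any start was 5.40% (4.83 to 6.03%) for regions of the IGF2BP1 and IGF2BP2 knockouts only, 4.04% (3.32 to 4.91%) for those of the IGF2BP2 and IGF2BP3 knockouts only, and 7.43% for those of all 3 knockouts without the control. Regions in all 4 lists had 39.4% at a start, and all regions together 19.6%. The interval of the members overlapped that of the first of these classes, lay above that of the second, and lay far below that of regions open in all 4 lists.

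The median member was 35.3 kb from a start, against 37.1 and 43.1 kb in the other classes of exactly 2 knockouts, 8.46 kb for regions in all 4 lists and 24.0 kb for all regions. Protein-coding genes overlapped 447 members (47.1%, 43.9 to 50.3%) by at least 1 bp, and 370 (39.0%) overlapped no gene of any kind. For regions of the IGF2BP1 and IGF2BP2 knockouts only the share that overlapped a coding gene was 47.2%. For those of the IGF2BP2 and IGF2BP3 knockouts only it was 39.0% (37.1 to 40.9%). Exons, introns and UTRs were not determined, since the gene table gives only the ends of each gene.

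**Figure D3:**
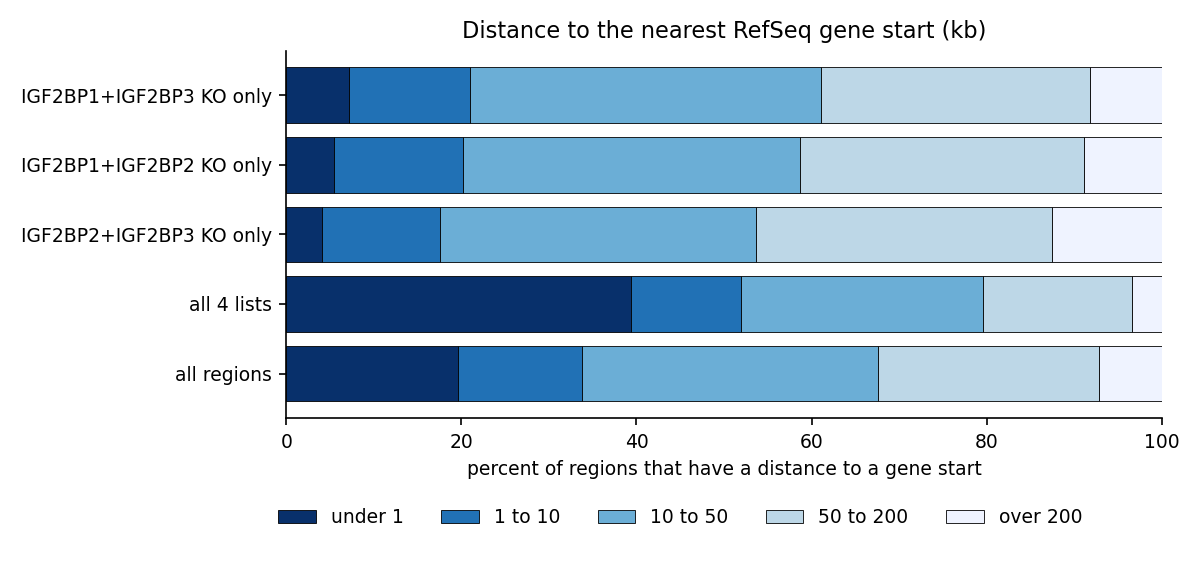
Each bar divides the regions of one class by distance to the nearest RefSeq gene start, with the percent of regions on the x axis and darker colours for shorter distances (kb). Members (top bar) resemble the other knockout-only classes, with 40% at 10 to 50 kb and 30.7% at 50 to 200 kb, while 39.4% of regions in all 4 lists lie under 1 kb.

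A member lay within 1 kb of the start of 43 protein-coding genes, 0.271% of the 15843 with a start in the table. The merged region covered the start base at 34 of them, and the peaks of both knockouts covered it at 29. At 38 neither the control nor the IGF2BP2 knockout list had a peak within 1 kb of that start, and at the others one or both did, at MECOM, LIMK1, DUSP16, RAP2C and GABRB2, the fourth of which was named after its values were seen. Many genes have more than 1 start in the table, so a covered start need not be the one in use.

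The starts with the widest peaks belonged to genes of varied function. SH3PXD2A, a scaffold of invasive adhesions, was covered at 1 of 5 listed starts. KMT5B, a histone H4 lysine methyltransferase, had peaks of 910 bp in the IGF2BP1 knockout and 931 bp in the IGF2BP3 knockout at chr11:68213556-68214562, and the nearest control peak was 3.77 kb away. KCNMA1, the pore-forming subunit of a calcium-activated potassium channel, had a peak of 1599 bp in the IGF2BP1 knockout and peaks of 897 and 423 bp in the IGF2BP3 knockout at chr10:77636941-77638610. Both KMT5B and KCNMA1 had a lacking-list peak within 10 kb, whereas the next gene did not. MAOB, a mitochondrial enzyme that breaks down monoamines, had peaks of 880 and 872 bp at chrX:43881853-43882772, and the nearest control and IGF2BP2 knockout peaks were both 67.0 kb away.

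CBS, the first enzyme of transsulfuration, carried the widest IGF2BP1 knockout peak of any member, 2521 bp, with peaks of 871 and 650 bp in the IGF2BP3 knockout, at chr21:43074536-43077056. The GRCh38 build holds a near-identical copy of CBS sequence on the same chromosome. How reads with several placements were treated is not stated in the sources used here, so this region is uncertain. RCC2, a regulator of cell division, had peaks of 1182 and 867 bp at chr1:17437674-17438855, with both lacking lists 17.4 kb away. KANK1, an adaptor between adhesions and the actin cortex, had peaks of 1582 and 804 bp at chr9:706743-708324, 191 kb from a control peak but 22.2 kb from an IGF2BP2 knockout peak. At CBS, RCC2 and KANK1 alike the IGF2BP1 knockout peak was the wider.

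CPAMD8, a gene of the alpha-2-macroglobulin family, had peaks of 949 and 798 bp at chr19:17026162-17027110. GAL3ST1, the sulfotransferase that makes the myelin lipid sulfatide, had peaks of 1606 and 797 bp at chr22:30572658-30574322, of which the IGF2BP1 knockout peak alone covered the start. GABRB2, a GABA-A receptor subunit gene, had peaks of 789 and 730 bp at chr5:161547610-161548398, and this member lay 885 bp from the start without covering it. An IGF2BP2 knockout peak lay 0.821 kb from the GABRB2 member, while the nearest control peak was 661 kb away.

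Members overlapped 58 of the 35116 promoter windows, 38 of them of protein-coding genes. Of the 16368 promoters overlapped by a region of all 4 lists 13280 were of coding genes, and of all 35116 promoters 22199 were. The values below were not matched for this mix. These 58 were less rich in CpG than the promoters open in all 4 lists. Their median G and C content was 64.0%, against 66.3% in the 16368 promoters overlapped by a region of all 4 lists and 58.7% in all promoters, and the median number of CpG per 300 bases was 19, 27 and 14. The GC box was present in 51.7% (39.2 to 64.1%) of them, against 72.5% and 45%. CCAAT was present in 19% (10.9 to 30.9%), against 34.2% and 34.6%, and the ETS-family pattern CCGGAAG in 3.45%, against 18.1% and 10.3%. Of 13 patterns sought on both strands, the members' interval lay below the share at promoters open in all 4 lists for these 3 and spanned it for the other 10. AP-1 (TGANTCA), for example, was present in 8.62% (3.74 to 18.6%) against 3.81%. The interferon-response pattern was present in 2 of the 58 (3.45%), those of OAS3 and DLG2, against 2.33% and 3.57%. Windows of starts of 1 gene can overlap, so the 58 are not independent.

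The members were spread unevenly over the chromosomes. Chromosome 11 held 103 (10.9%, 9.03 to 13.0%), while it held 4.04% of all regions, 1.94% of those of the IGF2BP1 and IGF2BP2 knockouts only and 2.07% of those of the IGF2BP2 and IGF2BP3 knockouts only. Chromosome 3 held 102 (10.7%, 8.93 to 12.9%), against 7.09% of all regions and 8.95% (8.23 to 9.72%) of those of the IGF2BP1 and IGF2BP2 knockouts only, whose interval overlaps that of the members. Chromosome 21 held 28 (2.95%, 2.05 to 4.23%), against 1.33%. Together, chromosomes 3 and 11 thus carried the most members, and chromosome 21 was second to chromosome 11 per 100 regions (2.94 and 3.56). Chromosome 2 held 24 members (2.53%, 1.71 to 3.74%) against 7.48% of all regions, 12.5% of those of the IGF2BP1 and IGF2BP2 knockouts only and 3.83% (3.15 to 4.65%) of those of the IGF2BP2 and IGF2BP3 knockouts only. Chromosome 16 held 5 (0.527%) against 2.66% of all regions, and the IGF2BP2 and IGF2BP3 knockouts only had 0.798% there. On chromosomes 2 and 16 the members' interval thus overlapped that of the latter class. Chromosome 19 held 7 (0.738%) against 3.08% of all regions. The members' interval also lay above the share of all regions on chromosomes 10, 13, 18 and 20 and below it on chromosomes 1 and 6. On chromosomes 1, 6, 10, 18, 19, 20 and 21 it overlapped that of the IGF2BP2 and IGF2BP3 knockouts only. On chromosome 13 that class had a higher share (10.5%, 9.31 to 11.7%) than the members (6.22%, 4.85 to 7.94%).

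The density of peaks in the lists themselves differed along the same chromosomes. The IGF2BP2 knockout list placed 3.39% of its peaks on chromosome 11, and the control, IGF2BP1 and IGF2BP3 knockout lists 4.77, 4.68 and 4.85%. In numbers, chromosome 11 held 1.09 IGF2BP2 knockout peaks per control peak, against 1.54 over the whole lists. On chromosome 2 the IGF2BP3 knockout list had the lowest share, 5.59%, against 7.18% in the control, 7.64% in the IGF2BP1 knockout and 7.80% in the IGF2BP2 knockout. Copy number differences between clones could not be measured from the lists, and the part of peak density in the count of members was not tested.

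**Figure D4:**
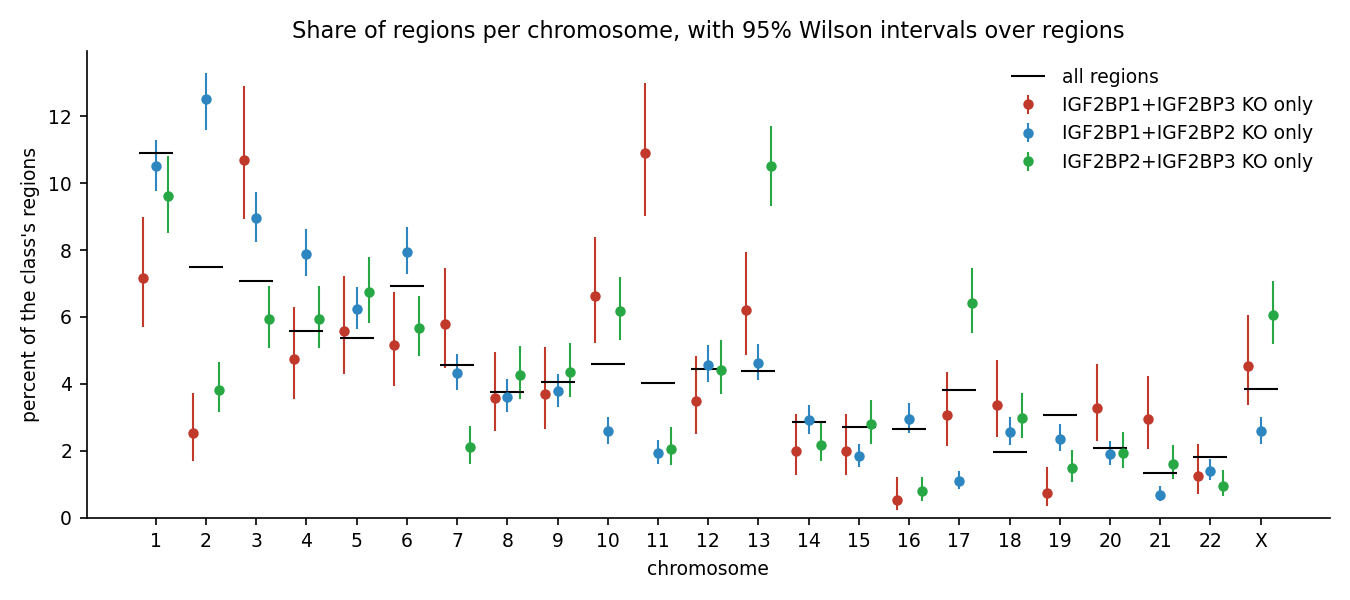
Percent of each class's regions on each chromosome (y axis), for members in red, regions of the IGF2BP1 and IGF2BP2 knockouts only in blue and of the IGF2BP2 and IGF2BP3 knockouts only in green, with vertical bars for 95% Wilson intervals over regions and black dashes for all regions. The members' bars lie wholly above the dash on chromosomes 3, 10, 11, 13, 18, 20 and 21 and wholly below it on chromosomes 1, 2, 6, 16 and 19.

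In windows of 5 Mb, members occurred in 408 windows, of which 162 held 1 and 42 held 5 or more. The window with most was 190 to 195 Mb of chromosome 3, with 12 members among 101 regions (11.9%). In that window the IGF2BP1 and IGF2BP3 knockout lists held 92 and 65 peaks, the control 52 and the IGF2BP2 knockout 44, although the IGF2BP2 knockout list is the longest overall. The window at 30 to 35 Mb of chromosome 21 held 10 members among 160 regions. A count of 9 was shared by 7 windows. They lay at 15 to 20, 115 to 120 and 120 to 125 Mb of chromosome 11, 185 to 190 Mb of chromosome 3, 150 to 155 Mb of chromosome 7, and 65 to 70 and 90 to 95 Mb of chromosome 13. The chromosome 3 window adjoins the one with most members, and members made up 9.28% of its 97 regions. The chromosome 13 windows held 375 and 235 regions, of which 67 and 51 were in all 4 lists, and members made up 2.40 and 3.83% of them.

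The IGF2BP2 gene itself, on chromosome 3, held 2 members among 11 regions, and IGF2BP1 and IGF2BP3 held none among 3 regions each. The members in IGF2BP2 were chr3:185701759-185703142, with peaks of 1324 and 827 bp, and chr3:185786198-185786904, with 707 and 543 bp. The frequency of members was unequal on either side of this gene. They were 2 of 224 regions (0.893%) in the 10 Mb below it and 19 of 196 (9.69%) in the 10 Mb above it. The IGF2BP2 knockout list held 195 peaks below the gene and 84 above it, the control 97 and 103, the IGF2BP1 knockout 151 and 178, and the IGF2BP3 knockout 112 and 127. The IGF2BP2 knockout list thus had 2.01 peaks per control peak below its own target gene and 0.816 above it. The place was looked at because it holds the targeted gene, the cause was not tested, and genotype and clone cannot be told apart.

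Of 20037 protein-coding genes, 480 (2.40%) held a member inside the gene or within 1 kb of it. These were long genes, with a median length of 158 kb against 24.1 kb for all. The share that held a member was higher in longer genes, from 0.580% of genes under 10 kb to 0.855% at 10 to 50 kb, 3.76% at 50 to 200 kb and 13.9% above 200 kb. Any count of genes with a member has to be read with that in view.

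There were 6 genes with 3 or more members. GPC6 and GPC5, neighbouring genes for glypicans, the heparan sulfate proteoglycans of the cell surface, held 4 and 3. CNTNAP2 and NTM, which encode neuronal cell adhesion molecules, held 3 each, as did SLIT3, an axon guidance ligand, and ATP2B2, a plasma membrane calcium pump. In GPC6 the control list held 12 peaks and each knockout list 41, and in GPC5 the control held 17, the IGF2BP1, IGF2BP2 and IGF2BP3 knockouts 46, 48 and 46. These genes were thus richer in peaks in all 3 knockout lists, members or not. NTM differed from them, with 9 control peaks, 10 and 12 in the IGF2BP1 and IGF2BP3 knockouts and 6 in the IGF2BP2 knockout.

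The series names innate immune signalling in its title, and 3 of 139 innate immune genes held a member (2.16%, 0.737 to 6.15%), close to the 2.40% of all coding genes. OAS3, an oligoadenylate synthetase that senses double-stranded RNA, had peaks of 836 bp in the IGF2BP1 knockout and 602 bp in the IGF2BP3 knockout at chr12:112938042-112938877. This member covered the start at 112938474 and the promoter printed above, and was 92.1 kb from the nearest peak of either lacking list. The members at the other 2 genes were smaller in the lesser of their peaks. PYCARD, the inflammasome adaptor ASC, had peaks of 999 and 410 bp at chr16:31201232-31202230, 530 bp from its start. IL10RB, a receptor chain used by interleukin 10 and lambda interferons, had peaks of 469 and 572 bp inside the gene at chr21:33286836-33287417.

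Neural lineage genes held members more often than coding genes as a whole, 17 of 84 (20.2%, 13 to 30%). They are also long, with a median of 540 kb. Among those over 200 kb the share was 16 of 66 (24.2%), against 13.9% for all coding genes over 200 kb. That length class has no upper limit, and lengths within it were not matched. Counted by region, 24 members (2.53%, 1.71 to 3.74%) lay at a gene of this list, against 1.39% (1.12 to 1.73%) of regions of the IGF2BP1 and IGF2BP2 knockouts only, 0.798% of those of the IGF2BP2 and IGF2BP3 knockouts only and 1.15% of all. The interval of the members meets that of the first class and lies above the other values. The list's members at NTM (3), OPCML, TENM4, DLG2 and NCAM1 are on chromosome 11. That chromosome held 10.9% of members, 4.04% of all regions, and 1.94 and 2.07% of the other classes of exactly 2 knockouts. The share of the list without chromosome 11 was not computed.

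Within the neural list, TENM2, a teneurin that joins synapses, had the widest pair, 1100 bp in the IGF2BP1 knockout and 1229 bp in the IGF2BP3 knockout at chr5:168085698-168087146. DSCAM, a homophilic adhesion molecule, had peaks of 704 and 654 bp, 203 kb from a lacking list, and GRID1, a delta glutamate receptor gene, 1147 and 726 bp. These members and those at SLIT3, CNTNAP2, FGF14 and CADM2 lay inside the genes. A DLG2 start was covered, 241 kb from the nearest lacking list, and an NTM start was covered 86.2 kb from it, both picked out after their values were seen.

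Genes of leukaemia and blood stem cells held a member in 8 of 56 cases (14.3%, 7.42 to 25.7%), and 9 members (0.948%, 0.50 to 1.79%) lay at them against 0.390% of all regions. All coding genes had 2.40%, and the list's genes are also longer, with a median of 86.5 kb, 4 of its 10 genes over 200 kb holding a member. IGF2BP2 itself, a targeted gene, is 1 of the 8, with 2 of the members. Without it 7 members (0.738%, 0.358 to 1.51%) were at the list's genes, an interval that spans the 0.374% of all regions. Counted by gene, 7 of the 55 left (12.7%, 6.30 to 24.0%) held a member, above the 2.40% of all coding genes, with gene length not accounted for. PAX5, the B-cell master regulator, had peaks of 724 bp in each knockout at chr9:36847969-36848803. PROM1, which encodes the stem cell marker CD133, had peaks of 803 and 696 bp beside its start. RUNX1, RUNX3, MECOM, MLLT3 and IGF2R held 1 each, and the narrower peak measured from 263 bp at MECOM to 466 bp at MLLT3.

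Kidney development genes held members in 3 of 53 cases, WNT4 and PAX2 among them, and cadherins and protocadherins in 3 of 43, at PCDH9, CDH12 and CDH18. Counted by region, both lists took shares of the members (0.316 and 0.421%) near those of all regions (0.316 and 0.401%). None of the 22 genes of the m6A machinery, which writes, erases and reads the RNA mark that IGF2BPs can recognise, held a member (0 to 14.9%), an interval that includes the 2.40% of all coding genes.

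**Figure D5:**
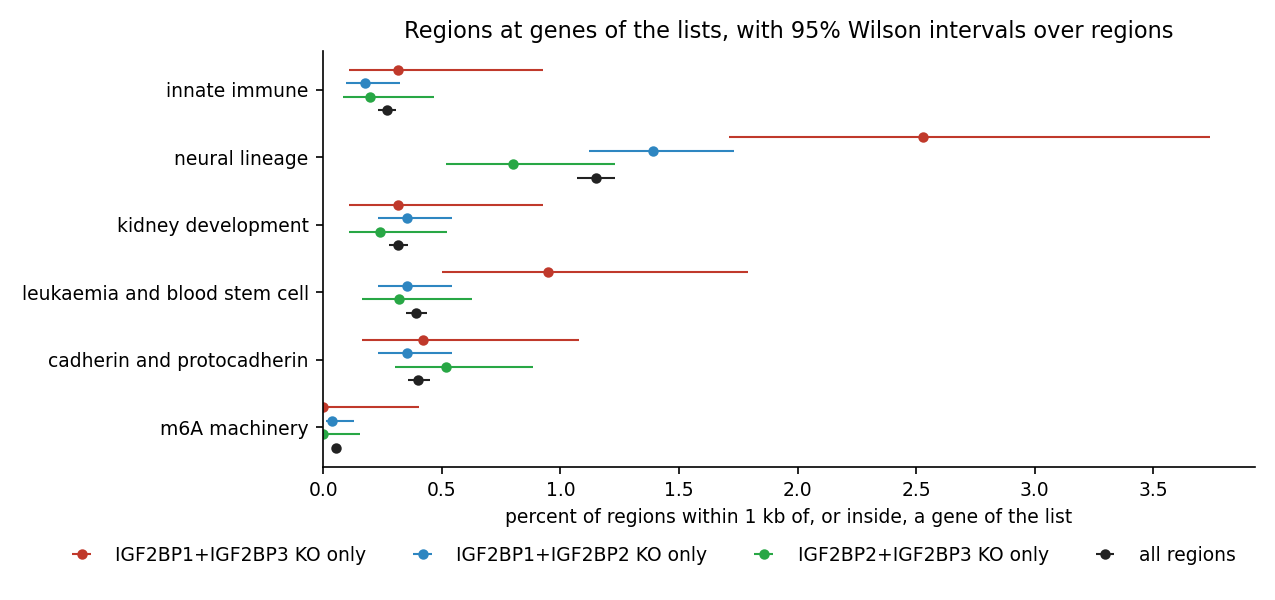
Percent of regions that lie in or within 1 kb of a gene of each list (x axis), for members in red, the other classes of exactly 2 knockouts in blue and green and all regions in black, with 95% Wilson intervals over regions. The members' interval lies above the value of all regions for the neural lineage list and, with IGF2BP2 counted, for the leukaemia and blood stem cell list, and spans it for the innate immune, kidney and cadherin lists.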

How the data were processed

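ATAC-seq was measured in 9 HEK293T libraries in 4 groups, and the authors deposited 1 peak list per group. A list gives the chromosome, start and end of each peak, with no score. Per the submitters' processing notes, the build was GRCh38 and the tools included fastp 0.24.1, BWA 0.7.17, MACS2 3.0.0 and bedtools, with no roles, thresholds, transposase shift or way of combining libraries stated. Per the labels, each knockout was 1 clone. The lists are pooled over libraries and batches, so within-batch values cannot be given.

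Peaks were merged where they shared at least 1 bp, and members chosen by presence in the lists. Positions are counted from 1. Gene ends (20037 protein-coding genes) and starts (35116 promoter windows, 15843 coding genes) came from RefSeq tables of GRCh38.p14. Starts on chromosome 8 were not used here. A start was matched within 1 kb. Base composition and motifs had been planned on windows at region centres and were computed on promoters instead. Wilson intervals (95%) cover counting error. Python 3.11.15, numpy 2.4.6, pandas 2.3.3, scipy 1.17.1 and matplotlib 3.10.9 were used, and the merging was tested on simulated data.

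The members and gene lists were chosen with earlier results of these data known. Of 57 symbols in the leukaemia and blood stem cell list 56 matched, and all symbols of the other lists did. Items were named by rule: the 10 members with the largest smaller peak width at least 1 kb from a lacking list, the 10 members at coding gene starts with the largest smaller width at any distance from a lacking list, genes with 3 or more members, the 5 windows with most members and those tied with them, list genes that hold a member, at most 10 per list by width, and 3 regions either side of the 1 bp rule. Members on chromosome 8 were counted and not named, and a few other members are not reported here by name.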

Additional observations from a re-analysis of the deposited data

How the results depend on the processing

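Of 57 alternatives over 9 results, 48 left the value within its interval or, for a count, within 1.5 times, and 9 did not. Several settings left 936 to 948 regions, close to the 949 members, and could hardly move a value. Requiring both peaks to be at least 500 bp wide left 461 members, a median smaller width of 631 bp, 261 protein-coding genes and 1 innate immune gene, OAS3. Limiting each list to its widest 39194 peaks, the length of the control list, gave 1234 regions with a median smaller width of 591 bp, a median distance of 17.1 kb to a lacking list and 8.02% on chromosome 11. Of the members, 493 (51.9%) overlapped one of these 1234 regions, and 741 of the 1234 overlapped no member, so which regions belong depends on the length of the lists. Chromosome 3 then held more (8.67%) than chromosome 11, and also with both peaks at least 500 bp wide (12.1 against 9.98%). Members at a gene start were 11.6% within 5 kb, and 14.0% lay within 1 kb of either end of any gene, an alternative chosen after seeing the data, as were leaving out chromosomes 3 and 11 and leaving IGF2BP2 out of its list.

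No paired analysis was possible because the lists carry no replicate numbers, and for the same reason no replicate was left out. Without read counts, the depth behind a missing peak is unknown, so a region absent from a list cannot be told apart from one below its threshold.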
